A study of Mus musculus with 12 samples.

Results

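Hepatic Lpcat3 deletion was examined here on a methionine- and choline-deficient (MCD) diet, by setting 3 liver libraries of cre mice against 3 of flox mice. The members are 6 of the 12 libraries of the series, chosen by their labelled treatment group, and 16523 of 55401 deposited genes that passed a filter on low counts. All mice of the series were C57BL/6 mice labelled male, aged 6 to 8 weeks, with both Lpcat3 alleles flanked by loxP sites (LPCAT3flox/flox), and were fasted for 12 h before the liver was taken. The flox mice carried no cre and so serve as the genotype control, and the cre mice carried it. The groups called flox MCD and cre MCD ate the MCD diet for 8 weeks, and the other 6 mice, flox control and cre control, ate a control diet. After 8 weeks of diet, the given age cannot be that of the MCD mice when the liver was taken. The promoter that drives cre is not given in the sources used here, although the title of the series calls the deletion hepatic. Nothing in the labels says whether mice of a group shared a litter or a cage, so every p-value measures only the spread between these libraries.

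LPCAT3 is an enzyme of the endoplasmic reticulum that attaches arachidonate and linoleate to lysophospholipids, and so sets how unsaturated the membranes of hepatocytes and of the lipoproteins they secrete are. Such phospholipids are known to affect how the membrane-bound factor SREBP-1c, which drives fatty acid synthesis, is processed, and its relative SREBP-2 drives cholesterol synthesis. The MCD diet removes the precursors of phosphatidylcholine, and mouse livers on it are known for fat storage, inflammation and fibrosis.

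The 6 MCD libraries held 42373104 to 65516723 estimated counts, and 3 counts in a library equal 0.0388 to 0.0696 CPM, the count scaled to the normalised library size. One ribosomal RNA gene took 5.6% of the counts of cre MCD 3, 15.5% and 18.9% of the other cre MCD libraries and 11.7% to 13.6% of the flox MCD libraries. The control-diet libraries, which enter the estimate of the spread, were less even. The same gene took 43.0%, 19.2% and 7.3% in flox control 1, 2 and 3, and 11.5% to 18.7% in cre control. The part of this imbalance in the results was not tested. Although the mice are labelled male, Xist, the noncoding RNA of the inactive X chromosome, stood at 116 to 444 CPM in the 6 MCD libraries. The Y-linked genes Ddx3y and Uty had a count of 0 in each of them. Markers of hepatocytes were abundant, with Alb at 34170 to 76110 CPM. The markers Prss2 (pancreas), Adipoq (fat cells) and Acta1 (skeletal muscle) were at 0 in all 6, while Cela2a, another pancreas marker, was at 0 in cre MCD 1 and at 0.184 to 0.367 CPM in the other 5.

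The check of the deleted gene divides the cre MCD group. Lpcat3 overlaps Emg1 on the other strand, and whether counting used strand is not given in the sources used here. Lpcat3 (ENSMUSG00000004270, GRCm38 chr6:124663027-124704418) stood at 55.7, 41.4 and 56.3 CPM in flox MCD 1, 2 and 3. It stood at 22.8 and 16.1 CPM in cre MCD 1 and 2, below every flox library, and at 56.1 CPM in cre MCD 3, inside the flox range. The full-length coding transcript (ENSMUST00000004381, 13 exons) was at 24.1, 17.1 and 22.7 FPKM in the flox MCD libraries. The same transcript was listed at 0 in cre MCD 1 and 2 and at 23.2 FPKM in cre MCD 3. A second transcript, ENSMUST00000135516, keeps intron 4 and otherwise shares the exons of the coding transcript up to the last 48 bases. It was at 4.81 and 4.19 FPKM in cre MCD 1 and 2, at 0.0185 FPKM in flox MCD 1, and listed at 0 in flox MCD 2, flox MCD 3 and cre MCD 3. The intron that sets these transcripts apart lies between exon 4 and exon 5 at chr6:124700101-124700240 (GRCm38, plus strand, GENCODE vM21), 140 bases long, and is shown with the splice-site bases at its ends in capitals.
Lpcat3 intron 4: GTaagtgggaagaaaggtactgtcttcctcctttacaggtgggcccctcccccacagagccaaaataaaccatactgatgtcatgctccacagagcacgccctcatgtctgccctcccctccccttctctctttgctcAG

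The library is therefore called the library labelled cre MCD 3, and each gene list below is counted with it (3 against 3 libraries) and without it (3 flox against 2 cre). For single genes the level in each library is given, and a fold change is with it unless stated otherwise. With it, Lpcat3 differed by a log2 fold change of −0.69 ± 0.35 (SE), which did not pass the test across all genes (edgeR quasi-likelihood test, Benjamini-Hochberg adjusted p = 0.657). Without it the log2 fold change was −1.40, a value given as a description, since the Lpcat3 level of that library was the reason for leaving it out.

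Across all genes, 2 were called (0.0121% of 16523), at an adjusted p under 0.05, and both were lower in cre MCD livers. They encode NR4A1, an orphan nuclear receptor induced within minutes of a stimulus, and ENDOD1, a protein with an endonuclease domain. Without the library labelled cre MCD 3, 3 genes were called (0.0175% of 17151), namely the same 2 and the cholesterol enzyme gene Dhcr7, which was higher in cre. At an unadjusted p under 0.05, 548 genes were higher (3.32%) and 828 lower (5.01%) in cre, together 8.33%. Without that library 629 were higher (3.67%) and 903 lower (5.26%), together 8.93%. The median log2 fold change over all tested genes was −0.01 with it and −0.03 without it. These shares are the background for the gene groups below, whose members were mostly not called one by one.

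Nr4a1 (ENSMUSG00000023034, GRCm38 chr15:101254269-101274795) stood at 20.7, 15.5 and 9.67 CPM in the flox MCD libraries and at 0.975, 0.348 and 1.78 CPM in the cre MCD libraries. The groups lay far apart, and the library labelled cre MCD 3 sided with the other cre libraries. The gene fell by 3.87 ± 0.53 (SE) on the log2 scale, 14.7-fold (adjusted p = 0.0397), and by 4.55 without that library (adjusted p = 0.0393). On the control diet its mean was 2.03 CPM in flox mice (1.51 to 2.55 CPM) and 1.90 CPM in cre mice (1.06 to 2.83 CPM). Every cre MCD library lay below these means, but the library labelled cre MCD 3 lay within both ranges. Endod1 (ENSMUSG00000037419, chr9:14353990-14381507) stood at 10.9, 13.2 and 12.7 CPM in flox MCD and at 2.44, 3.54 and 4.12 CPM in cre MCD. It fell by 1.86 ± 0.25 (SE) on the log2 scale, 3.64-fold (adjusted p = 0.0397), and by 2.04 with that library left out (adjusted p = 0.0498). Dhcr7 (ENSMUSG00000058454, chr7:143823145-143848410), which encodes the last reductase of cholesterol synthesis, stood at 14.1, 9.40 and 11.5 CPM in flox MCD and at 30.3, 44.3 and 27.0 CPM in cre MCD. Its log2 fold change was 1.54 ± 0.23 (SE) with an adjusted p just above the threshold of 0.05, and with that library left out the gene rose by 1.68 (adjusted p = 0.0498). These calls rest on a narrow margin. Leaving out single libraries (control-diet ones included, which enter the estimate of the spread) kept Nr4a1 called in 5 of 12 fits and Endod1 in 4 of 12, and both kept their direction in all 12. Both calls were lost without flox control 1 or 2, cre control 2, flox MCD 1 or 2, or cre MCD 1 or 2, and Endod1 also without flox MCD 3. Over all alternatives the adjusted p reached 0.131 for Nr4a1 and 0.194 for Endod1. With the library labelled cre MCD 3 already out, Nr4a1 stayed called in 7 of 11 such fits, Endod1 in 3 and Dhcr7 in 4, with adjusted p up to 0.0958, 0.207 and 0.207. With the 6 MCD libraries alone no gene was called by edgeR, and 1693 of 15555 genes had an unadjusted p under 0.05.

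**Figure D1:**
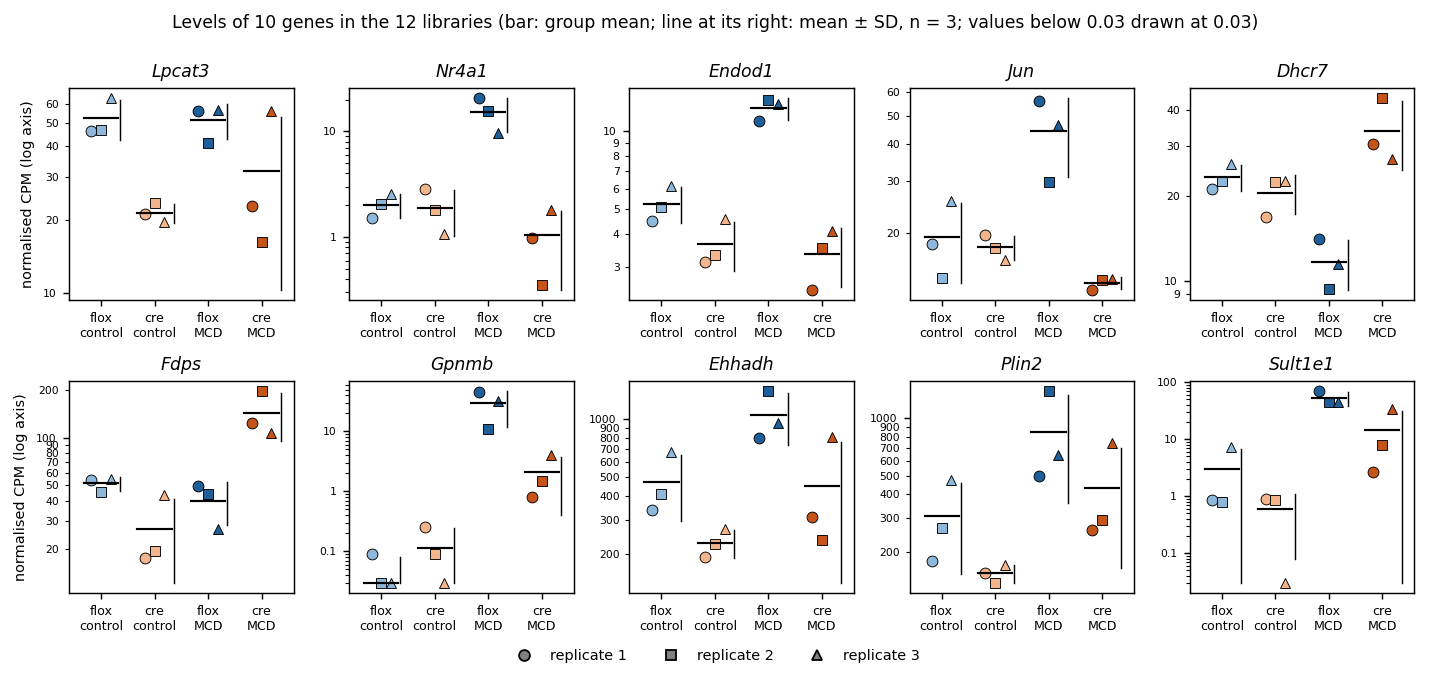
Normalised CPM (log axis) of 10 genes in each library of the 4 groups, with circles, squares and triangles for replicates 1, 2 and 3, a bar at the group mean and a line for the mean ± SD (n = 3). The triangle of cre MCD lies with the flox MCD libraries for Lpcat3 (56.1 CPM) and Ehhadh (805 CPM) and with the other cre MCD libraries for Nr4a1, Endod1, Jun, Dhcr7 and Fdps.

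Immediate-early genes, which switch on quickly and briefly after growth factors, stress or injury, held the most lower members by count, in the longest list, while recruited macrophage markers held a larger share. Of 45 tested members, 20 had an unadjusted p under 0.05 and all 20 were lower in cre, with a median log2 fold change of −0.68 over the 45, and in 25 the groups did not overlap (9.42% of all tested genes lay lower without overlap). Without the library labelled cre MCD 3 the count was 22 and the median −0.87, and on the control diet 3 were higher (3.37% of all genes) and 8 lower (3.84%) with a median of −0.10. Only Nr4a1 was called by edgeR. DESeq2, another count test, called 168 genes in all (1.02%), among them 10 members, all of them lower.

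Jun, a subunit of the AP-1 transcription factor, stood at 56.1, 29.9 and 46.6 CPM in flox MCD and at 12.9, 13.9 and 14.01 CPM in cre MCD (log2 fold change −1.70, adjusted p just above the threshold of 0.05). The antisense gene Junos overlaps it, so reads of the pair may be mixed. The cre libraries lay close together and below every flox library, and also below the control-diet means of 19.4 and 17.9 CPM. Junb, another AP-1 subunit, was at 38.8, 38.2 and 70.1 CPM against 14.4, 19.4 and 22.7 CPM (log2 fold change −1.38, adjusted p = 0.0962). Egr1, a zinc finger factor of the same class of early responses, was at 22.6, 52.02 and 68.95 CPM against 9.30, 10.7 and 14.02 CPM (log2 fold change −2.08, adjusted p = 0.0962). Atf3, a stress-induced bZIP factor, was at 23.8, 15.1 and 10.7 CPM against 4.08, 6.34 and 3.49 CPM (log2 fold change −1.83, adjusted p = 0.0962). Ier2 was at 25.3, 42.1 and 46.5 CPM against 17.8, 13.7 and 13.2 CPM (log2 fold change −1.35, adjusted p = 0.0962). In none of these genes did the groups overlap, and in each of them the library labelled cre MCD 3 stayed below the flox range. Noct, a gene of the deadenylase family with a strong daily rhythm, was at 84.1, 60.4 and 57.7 CPM against 16.4, 3.65 and 19 CPM (log2 fold change −2.37, adjusted p = 0.0962). Of 20 clock genes 5 were lower and none higher at an unadjusted p under 0.05, with a median of −0.08, and without the library labelled cre MCD 3 4 were lower and 2 higher, with a median of −0.03. Dbp, a clock output gene, varied within the flox MCD group, at 0.884, 17.8 and 14.7 CPM, against 0.928, 2.73 and 6.02 CPM in cre MCD.

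Promoters of immediate-early genes are known for sites of CREB, whose shortest core reads CGTCA. Among RefSeq promoters (GRCm38.p6, 250 bases before to 50 after the start), 1 per gene symbol, CGTCA stood on either strand in 19 of the 36 immediate-early genes with a promoter in the table (52.8%) and in 22.9% of all 20976. It stood in 9 of the 16 members with an unadjusted p under 0.05 and in 10 of the 20 other tested members. The promoters of Nr4a1 (chr15:101266596-101266895, plus strand, a start 12577 bases inside the deposited gene) and Junb (chr8:84978699-84978998, minus strand) are shown as members that were lower in cre, with each CGTCA or its reverse complement in capitals.
Nr4a1: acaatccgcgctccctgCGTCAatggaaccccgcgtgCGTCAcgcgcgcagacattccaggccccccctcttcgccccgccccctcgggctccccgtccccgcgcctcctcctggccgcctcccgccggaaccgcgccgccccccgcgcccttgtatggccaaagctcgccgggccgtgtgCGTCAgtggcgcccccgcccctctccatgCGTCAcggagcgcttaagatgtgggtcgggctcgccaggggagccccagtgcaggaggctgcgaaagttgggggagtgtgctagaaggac
Junb: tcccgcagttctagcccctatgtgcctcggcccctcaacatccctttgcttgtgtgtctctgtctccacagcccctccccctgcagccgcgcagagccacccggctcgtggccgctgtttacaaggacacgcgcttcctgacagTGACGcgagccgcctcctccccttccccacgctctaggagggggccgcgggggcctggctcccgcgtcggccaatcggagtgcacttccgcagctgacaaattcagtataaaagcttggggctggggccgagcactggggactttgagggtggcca
The Nr4a1 window held 4 such matches and the Junb window 1, and the window says nothing of whether a factor was bound.

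The genes of cholesterol synthesis, most of them known targets of SREBP-2, held more higher members than any other list. Of 23 tested members, 18 had an unadjusted p under 0.05 and all 18 were higher in cre MCD livers, with a median log2 fold change of 1.15. In 19 the cre libraries all lay above the flox libraries, against 8.13% of all tested genes. Without the library labelled cre MCD 3 the count was 17 and the median 1.36, and Dhcr7 alone was called. DESeq2 called 11 members with all libraries and 10 without that library (1.76% of all genes), every one of them higher and 9 of them in both fits. On the control diet the same list leaned the other way, with 5 members lower and none higher at an unadjusted p under 0.05 and a median of −0.50.

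Each of the 3 cre MCD libraries took part. Above the highest flox MCD library lay 19 of the 23 genes in cre MCD 1, 22 in cre MCD 2 and all 23 in the library labelled cre MCD 3, against 29.6% to 31.2% of all tested genes. Idi1, which isomerises the isoprene unit, was at 4.50, 2.67 and 2.61 CPM in flox MCD and at 17.1, 22.5 and 10.9 CPM in cre MCD (log2 fold change 2.37, adjusted p = 0.244). Fdps, the farnesyl diphosphate synthase, was at 49.9, 43.9 and 26.6 CPM against 124, 198 and 107 CPM (log2 fold change 1.84, adjusted p = 0.125). Lss, which closes the sterol rings, was at 14.8, 12.8 and 12.2 CPM against 32.9, 52.1 and 21.0 CPM (log2 fold change 1.41, adjusted p = 0.261). In these genes cre MCD 2 was the highest library, and the library labelled cre MCD 3 was the lowest of the cre libraries while still above every flox library. Sqle, the squalene epoxidase, was at 15.1, 11.2 and 8.37 CPM against 33.8, 69.7 and 26.4 CPM, and Cyp51, which removes a methyl group from lanosterol, at 99.2, 75.8 and 58.4 CPM against 178, 327 and 238 CPM.

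The inverted CCAAT box ATTGG, bound by NF-Y, which is known to act beside SREBP, stood on either strand in 14 of the 15 cholesterol genes with a promoter in the table (93.3%), against 38.5% of all 20976 promoters. It stood in 11 of the 12 members with an unadjusted p under 0.05 and in 3 of the 3 other tested members. The promoters of Dhcr7 (chr7:143822917-143823216), Idi1 (chr13:8885356-8885655) and Hmgcs1 (chr13:119690101-119690400), all on the plus strand in GRCm38.p6, are shown with each match in capitals, since Dhcr7 was called, Idi1 had the largest log2 fold change of the list and Hmgcs1 encodes an early enzyme of the route.
Dhcr7: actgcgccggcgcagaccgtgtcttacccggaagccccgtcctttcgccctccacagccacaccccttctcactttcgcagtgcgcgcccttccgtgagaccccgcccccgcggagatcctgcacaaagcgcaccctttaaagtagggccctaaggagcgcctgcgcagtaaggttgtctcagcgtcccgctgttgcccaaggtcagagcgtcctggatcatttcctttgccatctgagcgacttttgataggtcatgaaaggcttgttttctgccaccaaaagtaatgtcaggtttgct
Idi1: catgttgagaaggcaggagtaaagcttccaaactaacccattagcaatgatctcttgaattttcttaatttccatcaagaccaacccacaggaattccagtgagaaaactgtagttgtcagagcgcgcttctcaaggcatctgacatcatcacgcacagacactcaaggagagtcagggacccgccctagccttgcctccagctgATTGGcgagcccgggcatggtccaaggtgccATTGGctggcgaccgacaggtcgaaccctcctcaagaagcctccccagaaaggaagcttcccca
Hmgcs1: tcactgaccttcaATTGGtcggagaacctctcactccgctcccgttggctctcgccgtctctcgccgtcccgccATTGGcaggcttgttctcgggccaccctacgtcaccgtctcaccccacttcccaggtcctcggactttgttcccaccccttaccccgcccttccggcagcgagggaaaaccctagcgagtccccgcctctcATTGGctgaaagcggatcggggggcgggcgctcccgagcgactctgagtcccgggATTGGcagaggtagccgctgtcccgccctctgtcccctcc
The Dhcr7 window held 0 matches, the Idi1 window 2 and the Hmgcs1 window 4. A match is a run of letters and not a site.

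**Figure D2:**
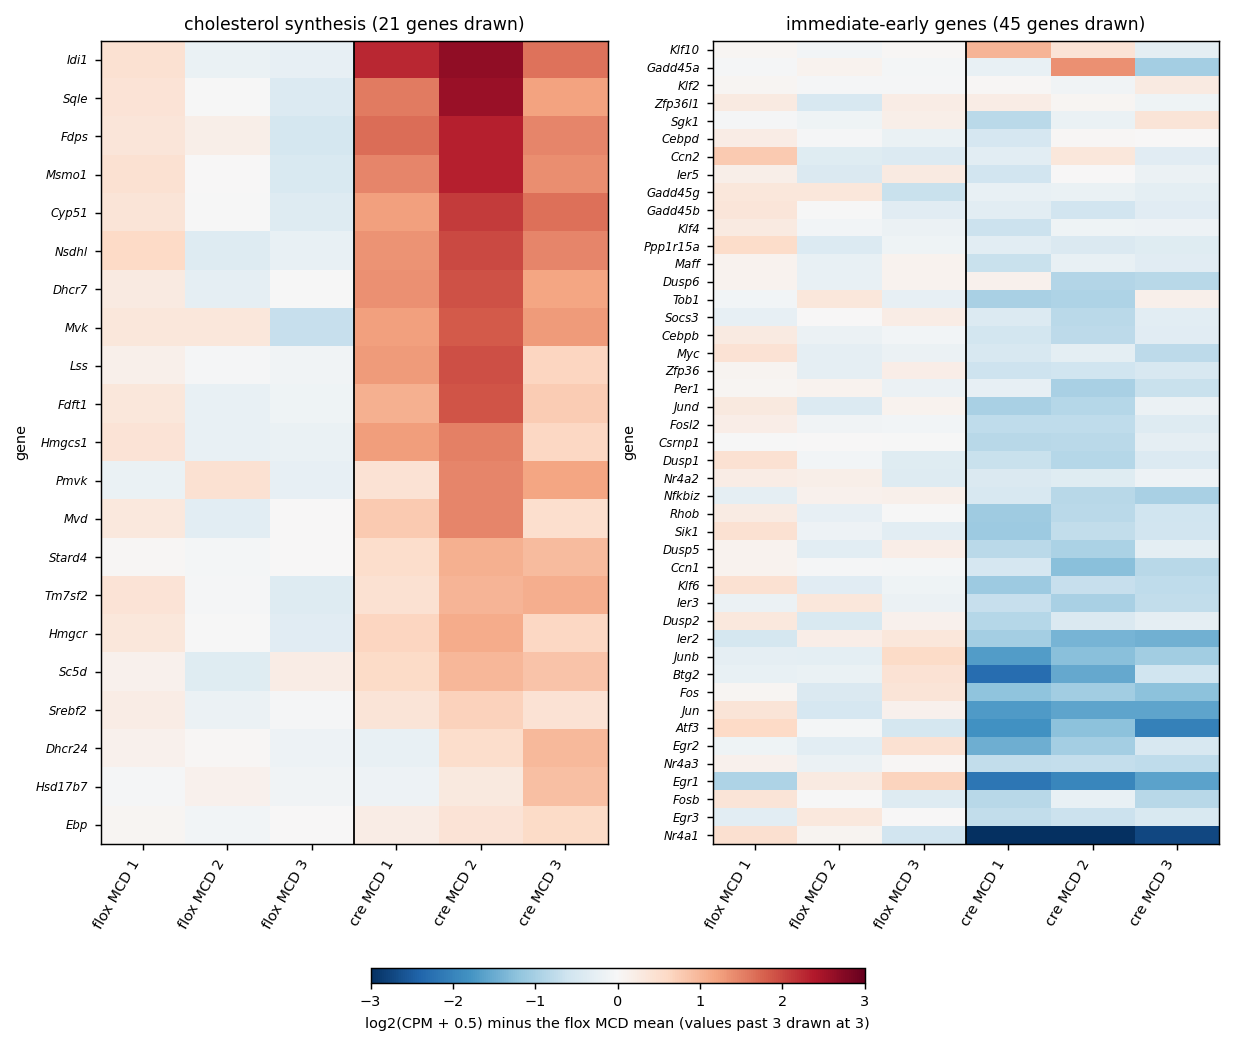
Log2(CPM + 0.5) of 21 of the 23 tested cholesterol synthesis genes and the 45 tested immediate-early genes in each MCD library, relative to the flox MCD mean of the gene, with genes in the order of their log2 fold change. Cholesterol genes are mostly red in all 3 cre MCD libraries, and immediate-early genes mostly blue, with median shifts of −0.69, −0.76 and −0.45 in cre MCD 1, 2 and 3.

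Genes of fatty acid synthesis and desaturation shared the direction in part. Of 23 tested members, 7 were higher at an unadjusted p under 0.05 and none lower, with a median log2 fold change of 0.37, and none was called by edgeR. Acly, the ATP citrate lyase, was at 20.4, 16.1 and 17.3 CPM in flox MCD and at 33.0, 40.8 and 31.6 CPM in cre MCD. Acss2, which makes acetyl-CoA from acetate, was at 22.6, 21.4 and 22.6 CPM against 28.9, 46.8 and 52.2 CPM. Elovl3, an elongase gene with a strong daily rhythm, was at 2.49, 2.88 and 2.38 CPM against 11.6, 6.89 and 4.17 CPM (log2 fold change 1.54, adjusted p = 0.259). In these 3 genes the groups did not overlap. Fasn, the fatty acid synthase, was at 35.1, 22.3 and 24.3 CPM against 55.2, 84.9 and 28.4 CPM, with the library labelled cre MCD 3 inside the flox range. Scd1, the stearoyl-CoA desaturase, singled out after its values were seen, was at 47.96, 63.6 and 172 CPM against 25.3, 29.4 and 391 CPM. That library thus lay above the flox MCD range where cre MCD 1 and 2 lay below it. The log2 fold change of Scd1 was 0.65 with the library and −1.79 without it. With that library left out, the list held 9 higher and 2 lower members at an unadjusted p under 0.05, and its median was 0.20, which turned to −0.05 in 1 alternative fit.

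Targets of PPARalpha, the nuclear receptor that switches on fatty acid oxidation in fasting, and genes of lipid droplets differed with and without the library labelled cre MCD 3. With it, 5 of 26 tested PPARalpha targets were lower at an unadjusted p under 0.05, with a median log2 fold change of −0.30. Without it, 10 were lower, with a median of −0.67, and in both fits none was higher. Below the lowest flox MCD library lay 19 of the 26 in cre MCD 1 and 25 in cre MCD 2, but 5 in the library labelled cre MCD 3 (32.9%, 33% and 34.4% of all tested genes). DESeq2 called 2 members lower with it and 7 without it, while it called 1.02% and 1.76% of all genes in either direction.

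Ehhadh, the bifunctional enzyme of peroxisomal oxidation, was at 795, 1400 and 951 CPM in flox MCD, at 312 and 236 CPM in cre MCD 1 and 2, and at 805 CPM in the library labelled cre MCD 3. Its log2 fold change was −1.22 with that library (adjusted p = 0.413) and −1.94 without it (adjusted p = 0.0784). Acot1, a cytosolic acyl-CoA thioesterase, was at 46.6, 129 and 47.8 CPM against 16.4, 12.8 and 49.6 CPM. Pdk4, which restrains pyruvate dehydrogenase in fasting, was at 119, 118 and 87.2 CPM against 53.5, 32.9 and 109 CPM. In these 3 genes the library labelled cre MCD 3 lay within the flox range and the other cre libraries below it. Acot2, the mitochondrial thioesterase, was at 103, 151 and 112 CPM against 63.9, 38.8 and 45.0 CPM, and here all 3 cre libraries lay below flox (log2 fold change −1.31, adjusted p = 0.0962). The wider list of mitochondrial and peroxisomal oxidation had 26 of 32 members (30.8% of all tested genes) above the flox range in the library labelled cre MCD 3, against 4 in cre MCD 1 and 5 in cre MCD 2, and none of the 32 below it there. At an unadjusted p under 0.05, 2 of the 32 were lower with that library and 5 without it, and none was higher in either fit, with medians of 0.0044 and −0.21.

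Of 25 tested genes of triglyceride synthesis and lipid droplets, 1 was higher and 5 lower at an unadjusted p under 0.05, with a median of −0.36. Without the library labelled cre MCD 3 it was 1 higher and 10 lower of 26 tested, with a median of −0.60. Plin2, the main coat protein of hepatocyte lipid droplets, was at 498, 1395 and 640 CPM in flox MCD and at 262, 293 and 739 CPM in cre MCD. Cidec, which fuses droplets, was at 22.6, 65.2 and 32.6 CPM against 10.02, 9.77 and 15.1 CPM (log2 fold change −1.79, adjusted p = 0.249). Flox MCD 2 was the highest library for both genes. Lpin1, a phosphatidate phosphatase gene, was the member that was higher, at 58.9, 28.8 and 36.2 CPM against 107, 90.4 and 85.0 CPM.

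Markers of recruited and lipid-associated macrophages, cells that gather around fat-laden hepatocytes, were lower as a list in cre MCD livers. The library labelled cre MCD 3 shared this less. In bulk liver RNA, fewer cells of a type and less RNA per cell cannot be told apart. Of 24 tested markers, 12 were lower and 1 (Cd63) higher at an unadjusted p under 0.05, with a median log2 fold change of −0.95, and without the library labelled cre MCD 3 14 were lower with a median of −1.45. The summed level of the list was 2614 to 2693 CPM in flox MCD and 1522, 1791 and 2646 CPM in cre MCD, so the library labelled cre MCD 3 reached the flox sum. That sum is carried in part by Plin2, which hepatocytes also express. Below the lowest flox MCD library lay 18 of the 24 markers in cre MCD 1 and 16 in cre MCD 2. In the library labelled cre MCD 3 it was 8 (32.9%, 33% and 34.4% of all tested genes). Above the flox range lay 1, 2 and 5 markers (31.2%, 29.6% and 30.8% of all tested genes).

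Gpnmb, a glycoprotein of lipid-laden macrophages, was at 46.3, 10.9 and 32.7 CPM in flox MCD and at 0.812, 1.466 and 3.996 CPM in cre MCD (log2 fold change −3.83, adjusted p = 0.0962). Trem2, a lipid receptor of the same cells, was at 12.1, 4.18 and 9.12 CPM against 1.07, 1.58 and 1.93 CPM (log2 fold change −2.47, adjusted p = 0.251). Mmp12, the macrophage elastase, was at 48.3, 11.8 and 42.0 CPM against 2.02, 2.35 and 8.10 CPM (log2 fold change −3.02, adjusted p = 0.251). In all 3 genes flox MCD 2 was the lowest flox library and the library labelled cre MCD 3 the highest cre library, with no overlap between the groups. Clec7a and Sirpa are not members of the list and were named for their small p in these data. Clec7a, a receptor for fungal glucans, was at 24.0, 15.8 and 29.0 CPM against 3.76, 6.12 and 9.03 CPM (log2 fold change −1.86, adjusted p = 0.0962). Sirpa, which receives the CD47 signal that restrains engulfment, was at 32.9, 19.7 and 31.3 CPM against 7.50, 11.6 and 12.0 CPM (log2 fold change −1.43, adjusted p = 0.0962). Lgals3, the lectin galectin-3, was at 107, 31.5 and 76.2 CPM against 7.56, 14.4 and 45.2 CPM, with the library labelled cre MCD 3 inside the flox range. Spp1, osteopontin, did not share the pattern, at 121, 43.3 and 81.1 CPM against 68.2, 88.2 and 117 CPM. Of 18 markers of the resident Kupffer cells 3 were lower and none higher, with a median of −0.24, and without the library labelled cre MCD 3 3 were lower and 1 higher, with a median of −0.12. The lower ones were Cd68, a lysosomal protein of macrophages, at 14.9, 5.56 and 10.1 CPM against 3.18, 3.57 and 5.10 CPM, the transcription factor gene Spic and the complement gene C1qb. Clec4f, a lectin of Kupffer cells, was at 34.2 to 41.2 CPM in flox MCD and at 28.6 to 41.0 CPM in cre MCD.

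Of 26 chemokine and cytokine genes, 10 were lower and 2 higher at an unadjusted p under 0.05, with a median of −0.80, and without the library labelled cre MCD 3 11 were lower and 1 higher, with a median of −0.88. Tnfrsf12a, the receptor of the cytokine TWEAK, was at 32.5, 22.7 and 26.4 CPM in flox MCD and at 7.42, 10.4 and 20.5 CPM in cre MCD. The chemokine Ccl5 was at 2.37, 1.22 and 2.13 CPM against 0.696, 0.862 and 0.426 CPM, while Cxcl13, which draws B cells, was higher, at 1.08, 0.380 and 0.478 CPM against 2.74, 1.503 and 1.91 CPM. Of 24 lymphocyte markers 5 were lower, with a median of −0.73 (6 lower and a median of −1.08 without the library labelled cre MCD 3), but most stood near the floor of counting: the summed list was 23.5 to 35.0 CPM in flox MCD and 19.5 to 25.0 CPM in cre MCD. Setting the members with no count in any cre MCD library to a floor of 3 counts over the group left the list median at −0.73. Of 5 neutrophil markers 1 was lower in either fit, and Ly6g had a count of 0 in 5 of the 6 libraries.

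Of 35 interferon response genes 9 were lower at an unadjusted p under 0.05, with a median of −0.44 (11 lower and a median of −0.56 without the library labelled cre MCD 3), and the control diet gave the same count with a median of −0.42. Irf7, the factor that amplifies interferon signals, was at 22.0, 22.2 and 32.1 CPM in flox MCD and at 9.26, 9.77 and 18.9 CPM in cre MCD. Among 25 acute phase genes 4 were lower and 2 higher, with a median of 0.09, against 6 lower, 1 higher and a median of −0.17 without the library labelled cre MCD 3, and the lower ones included the serum amyloid genes. Saa3 was at 13.6, 8.19 and 14.9 CPM against 2.71, 2.68 and 4.45 CPM (log2 fold change −1.89, adjusted p = 0.0800). Saa2 was at 7.76, 6.46 and 9.32 CPM against 0.0928, 0.953 and 2.40 CPM (log2 fold change −2.74, adjusted p = 0.261). The paralogs Saa1, Saa2 and Saa3 are similar in sequence, so reads could be split between them.

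Genes of the extracellular matrix, laid down by activated stellate cells in fibrosis, were also lower as a list. Of 38 tested members 16 were lower and none higher at an unadjusted p under 0.05, with a median log2 fold change of −0.61. Without the library labelled cre MCD 3 the count was again 16, with a median of −0.83. Col1a1, the main chain of collagen type I, was at 14, 2.77 and 12.9 CPM in flox MCD and at 2.25, 1.96 and 3.77 CPM in cre MCD (log2 fold change −1.89, adjusted p = 0.266). Flox MCD 2 lay inside the cre range for this gene, so the difference rests on flox MCD 1 and 3. Col5a1, a collagen that nucleates fibrils, was at 5.79, 3.98 and 5.39 CPM against 2.18, 2.31 and 2.59 CPM, and Eln, elastin, at 6.89, 3.22 and 5.49 CPM against 2.85, 1.19 and 1.88 CPM, both without overlap. Of 22 stellate cell markers 5 were lower, with a median of −0.29, and 3 without the library labelled cre MCD 3, with a median of −0.41. Among the 5 was Pdgfrb, the receptor that marks these cells, at 7.36, 6.06 and 7.15 CPM against 4.22, 4.23 and 3.98 CPM. Lrat, which stores retinol in them, was at 21.4, 23.5 and 20.5 CPM against 14.3, 34.7 and 20.0 CPM. The macrophage markers above were lower in the same libraries, and their part in the matrix and chemokine values was not tested. Endothelial markers went the other way: 6 of 24 were higher and none lower, with a median of 0.23, against 4 higher without the library labelled cre MCD 3 (median 0.23, and −0.03 to 0.35 over the alternatives without the library labelled cre MCD 3), and Clec4g, a lectin of sinusoidal endothelium, was at 22.5, 16.4 and 15.7 CPM against 26.8, 31.1 and 34.4 CPM.

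Hepatocyte markers lay on both sides, with 3 of 27 higher and 2 lower at an unadjusted p under 0.05 and a median of 0.21, and 1 higher and 3 lower with a median of 0.02 without the library labelled cre MCD 3. Alb was at 52080, 34170 and 48010 CPM in flox MCD and at 74540, 75380 and 76110 CPM in cre MCD, without overlap. Hal, 1 of the 3 higher ones, was at 146.5, 144.8 and 113.6 CPM against 194, 198.7 and 280.4 CPM, also without overlap (log2 fold change 0.73, adjusted p = 0.283). The 2 lower ones were Glul and Oat, which mark hepatocytes around the central vein. Whether that zone differed as a whole was not tested. Glul, glutamine synthetase, was at 905, 1100 and 1145 CPM against 501, 437 and 727 CPM (log2 fold change −0.92, adjusted p = 0.263). Oat, ornithine aminotransferase, was at 556, 645 and 742 CPM against 358, 230 and 380 CPM (log2 fold change −1.01, adjusted p = 0.347). In the library labelled cre MCD 3, 24 of the 27 markers lay above the flox MCD range (30.8% of all tested genes), against 7 in cre MCD 1 (31.2%) and 8 in cre MCD 2 (29.6%).

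Some enzymes of drug and steroid metabolism were higher in cre MCD livers. Of 32 cytochromes P450, 8 were higher and none lower at an unadjusted p under 0.05, with a median of 0.43, and none was called by edgeR. Without the library labelled cre MCD 3, 8 were higher and 2 lower, with a median of 0.27. Of the 32, 17, 18 and 22 lay above the flox range in cre MCD 1, 2 and 3 (31.2%, 29.6% and 30.8% of all tested genes). Below it lay 6, 6 and 4 of them (32.9%, 33% and 34.4% of all tested genes). Cyp2c37 was at 391, 355 and 432 CPM in flox MCD and at 841, 944 and 856 CPM in cre MCD, between flox MCD and its control-diet means of 1124 and 1076 CPM. Cyp2c54 was at 2.95, 2.03 and 2.53 CPM against 8.77, 16.3 and 10.4 CPM (log2 fold change 2.24, adjusted p = 0.0962), far under its control-diet means of 273 and 500 CPM. The Cyp2c genes lie in a family of close paralogs whose reads could be split. Enpep, the aminopeptidase that degrades angiotensin II, was at 21.0, 25.2 and 24.8 CPM against 45.5, 56.6 and 49.7 CPM (log2 fold change 1.10, adjusted p = 0.0581), the last again near the control-diet means of 48.8 and 46.5 CPM. Hao2, a peroxisomal hydroxyacid oxidase, was at 14.2, 14.1 and 18.9 CPM against 46.3, 41.9 and 28.9 CPM. For bile acids, Abcb11, the canalicular export pump, was at 302, 215 and 245 CPM against 538, 497 and 363 CPM, and Slc10a2, the sodium-dependent uptake carrier, at 8.61, 5.54 and 8.88 CPM against 2.97, 2.71 and 5.02 CPM.

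Sulfotransferases lay on both sides. Of 17 tested, 4 were higher and 1 lower at an unadjusted p under 0.05, with a median of 0.64, and 5 and 2 without the library labelled cre MCD 3, with a median of 0.43. Sult1e1 (ENSMUSG00000029272, chr5:87575969-87591594), the estrogen sulfotransferase that the title of the series appears to name, was at 71.3, 44.8 and 45.8 CPM in flox MCD and at 2.71, 7.99 and 33.6 CPM in cre MCD. All cre libraries lay below the flox libraries, with the library labelled cre MCD 3 far nearer to them than the other cre libraries. The log2 fold change was −1.87 ± 0.94 (SE) with that library (adjusted p = 0.648) and −3.33 without it (adjusted p = 0.291), and neither passed in edgeR. Without that library it was called lower by limma voom (adjusted p = 0.0369) and by limma on log2(FPKM + 1) (adjusted p = 0.0199), over a range of adjusted p up to 0.761 among the alternatives. On the control diet it was at 0.860, 0.802 and 7.19 CPM in flox and at 0.905, 0.866 and 0 CPM in cre mice, so the flox mean there rests on 1 library. Sult2a1, a sulfotransferase of bile acids and steroids, was at 91.4, 108 and 202 CPM against 370, 635 and 426 CPM, and Sult2a5 at 8.66, 8.06 and 17.3 CPM against 30, 60.6 and 42.2 CPM. Sult5a1 was lower, at 2.40, 2.48 and 2.26 CPM against 0.696, 0.183 and 0.853 CPM. The Sult2a genes are close paralogs, so their counts may be shared out between copies.

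Genes next to Lpcat3 in phospholipid metabolism differed little. Of 16 lysophospholipid acyltransferases, Lpcat3 included, none was higher and 1 lower at an unadjusted p under 0.05. Without the library labelled cre MCD 3, 2 were lower. Lpcat3 was among these, and its level was the reason for leaving that library out. The lower one with all libraries was Agpat1, which acylates lysophosphatidic acid, at 11.4, 11.9 and 11.9 CPM in flox MCD and at 9.30, 6.16 and 5.61 CPM in cre MCD. Of 17 genes of phosphatidylcholine and phosphatidylethanolamine synthesis 1 was higher, Selenoi, at 39.5, 39.0 and 47.1 CPM against 52.6, 63.5 and 55.7 CPM, and without the library labelled cre MCD 3 1 was higher and 1 lower. Among genes for methionine and one-carbon metabolism, 3 of 25 were higher and none lower, with a median of 0.24, against 1 higher and 1 lower with a median of 0.16 without that library. Endoplasmic reticulum chaperones and XBP1 targets had 1 of 22 higher, Sec61a1, with a median of 0.25, against 2 higher and a median of 0.31 without it. Genes of the ATF4 response to amino acid shortage had 3 of 22 higher and 2 lower, with a median of 0.37, but 6 higher and none lower without it, with a median of 0.54. For the remaining lists the counts without that library follow each count. NRF2 and glutathione genes had 3 higher and 2 lower of 36 (2 and 2), glycolysis 2 and 4 of 22 (2 and 3), and gluconeogenesis and glycogen 3 and 0 of 24 (2 and 1). Lipoprotein assembly had 1 higher and 0 lower of 22 (0 and 1), the growth hormone axis 0 and 1 of 19 (1 and 0), and heat shock proteins 0 and 2 of 16 (0 and 4). Major urinary protein and sex-biased genes had 7 higher and 2 lower of 30 (6 and 0), and proliferation genes 0 and 1 of 26 (0 and 5). Cholangiocyte markers had 0 higher and 2 lower of 16 in either fit, and of 9 tested markers of red cells and other tissues 3, all hemoglobin genes, were higher (2 without it).

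**Figure D3:**
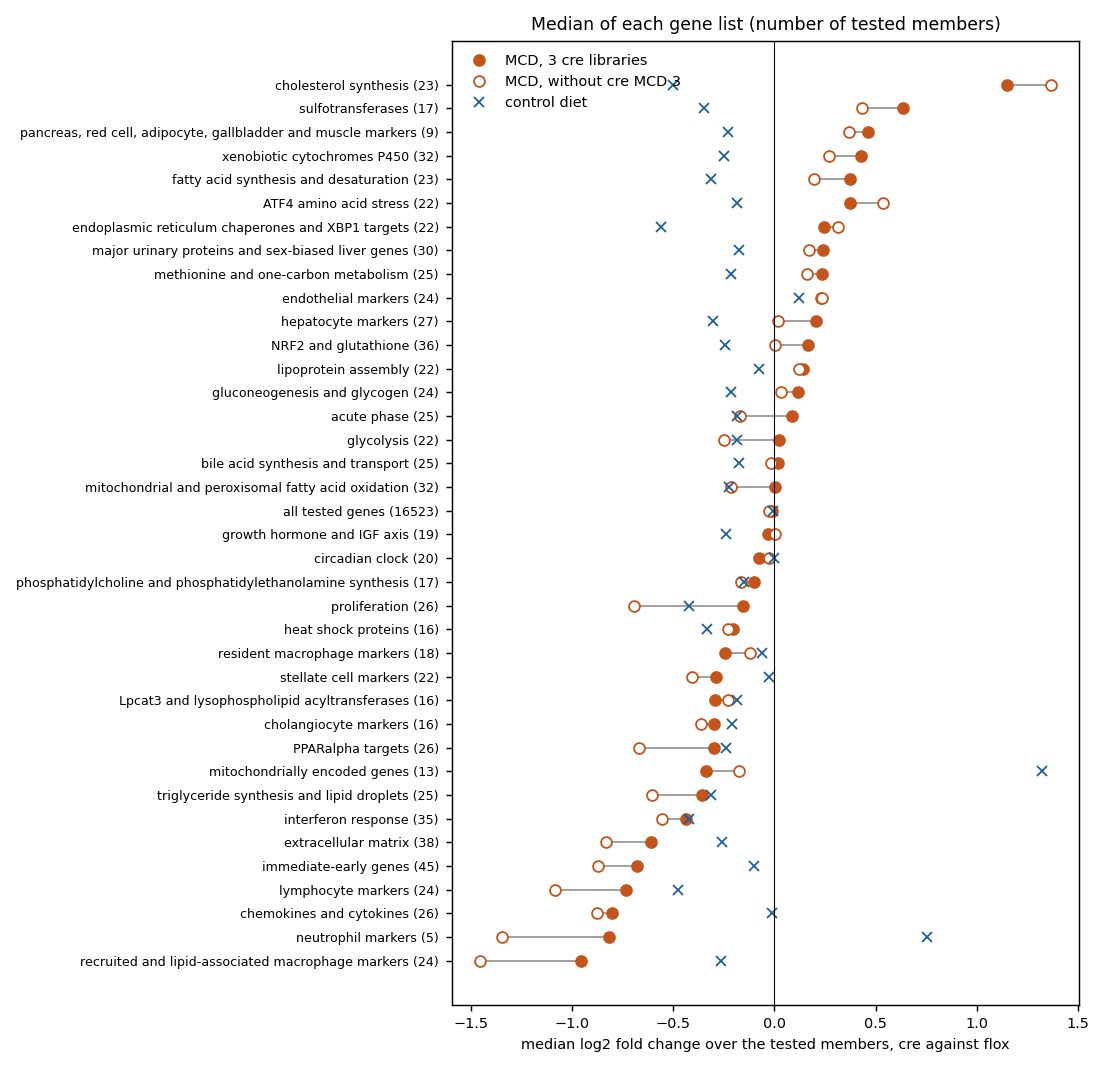
Median log2 fold change of cre against flox for each of the 37 gene lists and for all tested genes, on MCD with all 3 cre libraries (filled), without the library labelled cre MCD 3 (open), and on the control diet (crosses). On MCD, cholesterol synthesis lies farthest to the right (1.15 and 1.36) and recruited macrophage markers farthest to the left (−0.95 and −1.45). On the control diet cholesterol synthesis lies on the left side (−0.50), with endoplasmic reticulum chaperones farther left (−0.56).

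Since the library labelled cre MCD 3 holds the coding Lpcat3 transcript, its place on the other genes was set against that of the other cre libraries. Each cre MCD library was left out in turn, genes with an unadjusted p under 0.001 and a mean of at least 5 CPM were taken from the fit without it, and its own level was then set beside the flox MCD range. For cre MCD 1, 36 of 43 genes (83.7%) lay beyond the flox range on the side of the other cre libraries, and for cre MCD 2, 19 of 19. For the library labelled cre MCD 3, 66 of 87 (75.9%) lay on that side, 18 within the flox range and 3 on the other side, against 43.7% on that side among all 8364 genes with such a mean. Its median share of the difference between the other cre libraries and flox was 42.6%, against 77.8% for cre MCD 1 and 109% for cre MCD 2. Over all 8364 genes the median share was 40.3% for the library labelled cre MCD 3, close to its value for the chosen genes, against 20.9% for cre MCD 1 and 100% for cre MCD 2. On the same side lay 38% of all genes for cre MCD 1 and 55.1% for cre MCD 2. The fits share most of their libraries, and the shares are descriptions without a test. The same flox MCD libraries helped to choose the genes and also set the flox range. A larger share beyond that range among the chosen genes than among all genes is therefore partly built in.

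Of 7 cholesterol synthesis genes and 6 immediate-early genes among the 87, the library labelled cre MCD 3 lay beyond the flox range on the cre side in every one, against 75.9% of the 87. Of 5 PPARalpha targets it did so for Acot2 and Cidec, while Ehhadh, Acot1 and Pdk4 were within the flox range. Lpcat3 was within that range too, which was known beforehand, since its level was the reason for leaving that library out. Within the flox range that library also held Fasn, Lgals3, Mfsd2a, a carrier of lysophosphatidylcholine, and Cyp17a1, a steroid hydroxylase. On the other side of it lay Slc25a22, a mitochondrial glutamate carrier, Foxa3, a liver transcription factor, and Ifi27, an interferon-induced gene at 28.3, 29.96 and 39.1 CPM in flox MCD and at 7.68, 15.6 and 45.4 CPM in cre MCD.

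**Figure D4:**
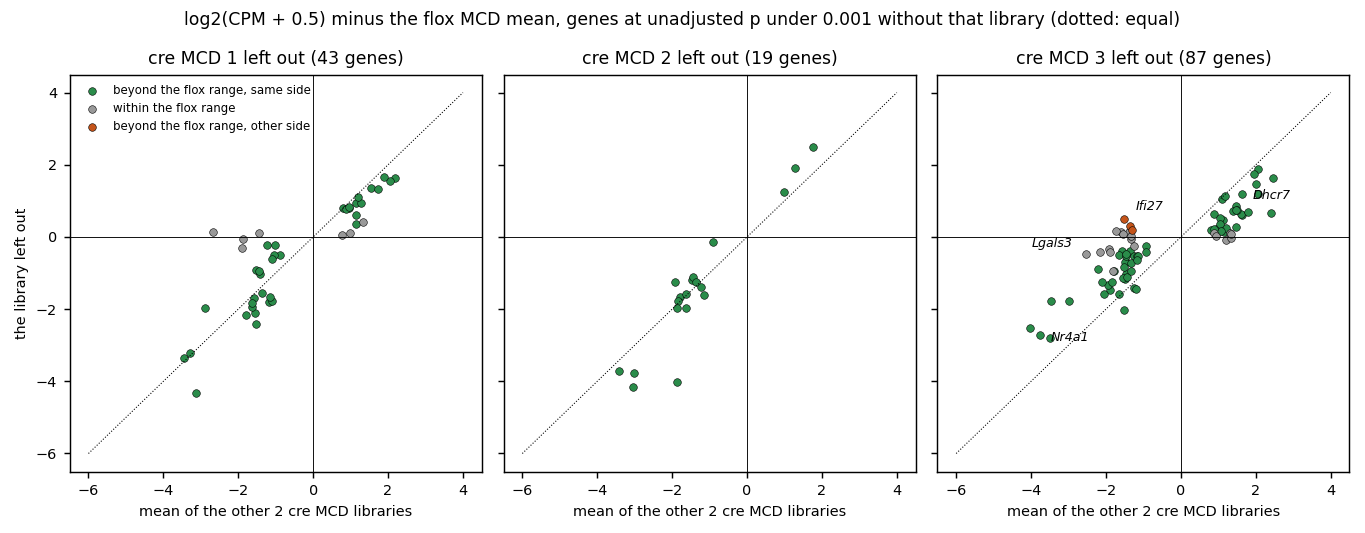
Log2(CPM + 0.5) minus the flox MCD mean in a cre MCD library that was left out of the fit (vertical axis) against the mean of the other cre MCD libraries (horizontal axis), for 43, 19 and 87 genes with an unadjusted p under 0.001 in that fit. Most points are green, beyond the flox range on the same side, and for the library labelled cre MCD 3 they lie nearer to the horizontal zero line than the dotted line of equality, with 18 grey points within the flox range and 3 orange points on the other side.

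The cre effect on MCD was set against that on the control diet in the same fit. On the control diet 7 genes were called (0.0424%), and the difference between the diets passed for 1 gene (0.00605%), Pakap, which is none of the genes above. At an unadjusted p under 0.05 the difference was higher for 670 genes (4.05%) and lower for 813 (4.92%), together 8.98%. Among cholesterol synthesis genes it was higher for 20 of 23 and lower for none, with a median of 1.73 on the log2 scale against −0.01 over all genes. Among immediate-early genes it was higher for 2 and lower for 15 of 45, with a median of −0.73, and among recruited macrophage markers higher for 1 and lower for 7 of 24, with a median of −0.85. Other lists were as one-sided: xenobiotic P450 had 12 higher of 32 and none lower (median 0.82), endoplasmic reticulum chaperones 11 of 22 and none (0.67), and fatty acid synthesis 8 of 23 and none (0.79). On the control diet alone these lists leaned lower in cre at an unadjusted p under 0.05 (3.84% of all genes lower). P450 had 1 higher and 6 lower (median −0.25), chaperones 0 and 9 (−0.56), and fatty acid synthesis 0 and 5 (−0.31). The chaperone list differed mainly on that diet, since on MCD 1 was higher and none lower (median 0.25). For single genes the test of the difference did not pass, with an adjusted p of 0.214 for Nr4a1, Dhcr7 and Fdps. Mitochondrially encoded genes also differed mainly in the control-diet comparison, with 12 of 13 higher in cre control livers and a median of 1.32. On MCD 1 of them was lower with a median of −0.34, or 2 with a median of −0.17 without the library labelled cre MCD 3. The share of counts that they took was 7.39% to 13.2% in the MCD libraries, 6.26% to 14.7% in flox control and 14.9% to 30% in cre control, and its part in the differences between diets was not tested.

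**Figure D5:**
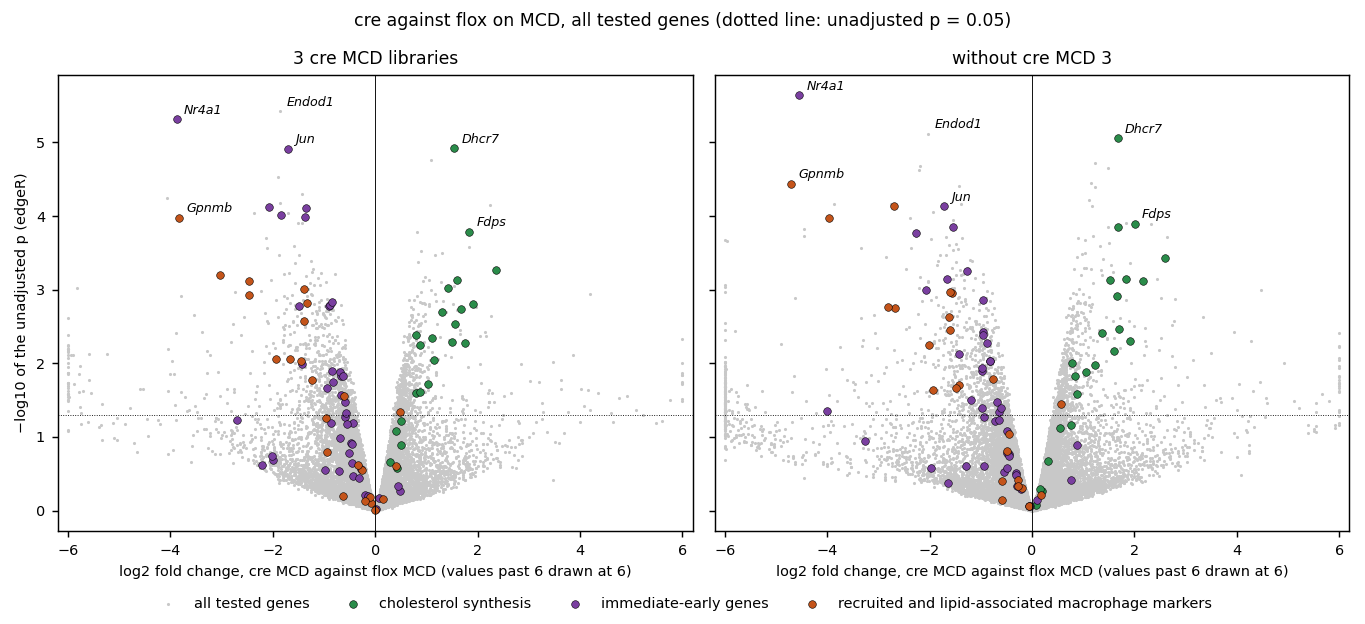
Log2 fold change of cre against flox on MCD (horizontal axis) and −log10 of the unadjusted p (vertical axis) for all tested genes, with 3 gene lists in colour, with all 3 cre libraries (left) and without the library labelled cre MCD 3 (right). Cholesterol synthesis genes lie on the right, immediate-early genes and recruited macrophage markers mostly on the left, and Nr4a1, Endod1 and, in the right panel, Dhcr7 were called.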

How the data were processed

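The authors made poly(A) RNA libraries of liver with a SMARTER kit, per the labels. The submitters' processing notes name cutadapt, FastQC, HISAT2, StringTie and edgeR, without versions, and the genome mm10. The deposited count table holds estimated counts per gene, and the deposited transcript table holds FPKM, a unit read from its relation to the counts, since for 99.97% to 100% of transcripts with FPKM above 0 the count is within 1 of FPKM times length times a constant. Whether counting used strand is not given in the sources used here, so overlapping genes may share reads. GENCODE vM21 held 99.5% of the gene identifiers.

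Counts were filtered with filterByExpr and scaled with TMM, and edgeR 4.0.16 (R 4.3.3, quasi-likelihood, 2-sided), fitted to all 12 libraries by group, gave cre MCD minus flox MCD. The second fit left out cre MCD 3. A gene was called at p under 0.05 after Benjamini-Hochberg adjustment over the tested genes. Fold changes are on the log2 scale, levels are TMM-normalised CPM, and standard errors were taken from the absolute fold change and the root of the F statistic. An exact permutation test of 3 against 3 libraries cannot go below 0.1, so none was run. The script was tested on simulated data. Intervals of counting are not given, since estimated counts are not single reads.

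The members, the 37 gene lists (904 of 907 entries found, 871 tested) and the rule for named genes were chosen with earlier results of these data known. Named were Lpcat3, Sult1e1, called genes, the 15 genes with the smallest p and a mean of at least 5 CPM, and, per list, up to 4 members of smallest p in either fit. Further list members are given as examples. Alternatives were edgeR with relative log expression (RLE) scaling in place of TMM, the DESeq2 1.42.0 test, limma 3.58.1 voom and limma on log2 FPKM. Further ones were other filters, only the MCD libraries, and the replicate number as a block. A second threshold of a log2 fold change of 1 and leaving out each library were also run. Leaving out control-diet libraries other than flox control 3, and the places of left-out libraries by unadjusted p, were added after seeing the data. Promoter motifs were also chosen after seeing the data. Some genes are not reported here.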

Additional observations from a re-analysis of the deposited data

Results flagged for a closer look

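Pakap (ENSMUSG00000038729, chr4:57717657-57896984, GRCm38) was the gene whose cre effect differed between the diets in the fit across all genes, by −6.45 ± 0.40 (SE) on the log2 scale (edgeR quasi-likelihood test, adjusted p = 4.05e-06). Its row stood at 13.8, 12.2 and 12.2 CPM in flox MCD and at 8.86, 9.28 and 6.14 CPM in cre MCD. On the control diet it stood at 0.148, 0.0916 and 0.0627 CPM in flox and at 5.62, 5.85 and 5.10 CPM in cre mice. The deposited table has 3 rows with this symbol. Another of them, ENSMUSG00000089945, stood at 5.54 to 6.34 CPM in flox control and at 0 in the other 9 libraries. The sum of the rows was 5.60 to 6.76 CPM in flox control, 5.10 to 5.85 CPM in cre control, 12.2 to 13.8 CPM in flox MCD and 6.14 to 9.33 CPM in cre MCD.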

How the results depend on the processing

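The count of called genes depended on the method. Against 2 genes with all libraries and 3 without the library labelled cre MCD 3, DESeq2 called 168 and 302, limma voom 12 and 38, and edgeR without a filter on low counts 20 and 97. EdgeR with RLE scaling gave 5 with all libraries, and leaving out ribosomal and mitochondrial rows gave 4 and 1. A stricter CPM filter gave 5 and 5, and only the MCD libraries 0 and 1. Deviations from the group mean correlated at 0.0404, −0.00227 and 0.127 between flox MCD and cre MCD libraries of the same replicate number. Such deviations cancel within a group, so these values cannot decide whether the numbers pair the libraries. The replicate block gave 6 and 5 called genes. Limma on log2(FPKM + 1) called 31 and 39, on log2(FPKM + 0.1) 1 and 12, and on log2(FPKM + 1) without a filter 31 and 57. The FPKM fits moved the median of all genes to −0.11 and −0.17 with the pseudocount of 1, and to −0.15 and −0.21 with 0.1. There 132 of 1097 genes at an unadjusted p under 0.05 were higher in cre, against 548 of 1376, and 149 of 1161 without the library labelled cre MCD 3. Without a filter those fits gave 2557 and 2647 genes at an unadjusted p under 0.05, and requiring a log2 fold change of 1 as well left 524 and 741. Leaving out single libraries gave 0 to 10 called genes (895 to 1727 at an unadjusted p under 0.05), and 0 to 46 without the library labelled cre MCD 3 (1089 to 2007), both highest without flox control 3. The direction of single genes turned on 1 library. Leaving out single libraries gave log2 fold changes of −2.35 to 0.39 for Muc1, −0.92 to 0.29 for mt-Co2 and −1.16 to 0.0362 for Tdo2, each highest without flox MCD 2, and −0.98 to 0.16 for Nnmt, highest without cre MCD 1. With the library labelled cre MCD 3 already out, the ranges were −2.03 to 0.71 for Muc1, −1.03 to 0.18 for mt-Co2 and −1.73 to 0.0358 for Krt19, again highest without flox MCD 2, and −0.42 to 1.52 for Hbb-bt, lowest without cre MCD 2. In the FPKM fits without it, the direction also turned for Slc44a1 (−0.0077 and −0.0088) and Scarb1 (−0.0023 and −0.0021). The causes were not tested. Of 1737 list medians recomputed, 97 changed sign, 45 of them by more than the spread of library medians. The medians of cholesterol synthesis, immediate-early genes, recruited macrophage markers, chemokines, extracellular matrix, PPARalpha targets, lipid droplets, P450 and sulfotransferases kept their sign in every alternative run.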
